A study of Mus musculus with 6 samples.

Results

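The genes described here are 10 members of the NRF2 pathway and of the enzymes that handle hydrogen peroxide, oxidised thiols and quinones in the liver. They were chosen by gene symbol, namely Nfe2l2, Keap1, Nqo1, Gclc, Gclm, Txnrd1, Srxn1, Gsr, G6pdx and Cat, and all 10 were found among the 45777 genes listed and among the 17274 genes tested. Liver RNA of male C57BL/6 mice on a high-fat diet (HFD) was sequenced from 3 littermate controls (LT), which carried the Fpn flox/flox alleles without Cre, and from 3 mice labelled Fpn-LKO, which carried the same alleles with Alb-Cre, a Cre recombinase driven by the albumin promoter and therefore active in hepatocytes. Fpn is ferroportin, the only known cellular iron exporter, encoded by Slc40a1, and the comparison asks how its removal from hepatocytes affects the liver under the HFD. All 6 libraries, 1 per mouse, carry the same batch label, and the labels give neither the age of the mice nor the length of the feeding. The floxed allele came from a 129S strain and was backcrossed to C57BL/6J, and Cre mice and controls differ in the transgene as well as in the deletion. Because whole liver was used, fewer cells of a type and less RNA per cell cannot be told apart.

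NRF2, the product of Nfe2l2, is a transcription factor that KEAP1 holds in the cytoplasm and hands to the proteasome. When oxidants or electrophiles modify cysteines of KEAP1, NRF2 escapes degradation, enters the nucleus, pairs with a small MAF protein and binds antioxidant response elements near its target genes. Its targets supply glutathione, NADPH and thioredoxin reductase and detoxify quinones, and Nqo1 is widely used as the readout of the pathway. Much of this control acts on the NRF2 protein, so the transcript level of Nfe2l2 itself need not follow its activity. Iron can feed the formation of hydroxyl radicals from hydrogen peroxide, which catalase and the glutathione and peroxiredoxin systems remove.

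None of the 10 genes was found to differ between the genotypes beyond the spread between mice. The fitted differences ran from 0.683-fold for G6pdx to 1.34-fold for Srxn1, libraries labelled Fpn-LKO over LT, and in every one of the 10 the values of the groups overlapped. With edgeR's quasi-likelihood test and Benjamini-Hochberg adjustment over all genes, no member passed an adjusted p of 0.05, beside 4 of all 17274 genes tested (0.0232%), and none passed with edgeR's exactTest (0.365% of all genes) or DESeq2 (0.417%). At an unadjusted p under 0.05 the count was again 0 of 10, beside 4.8% of all genes, and non-overlapping groups were found for 0 of 10, beside 10.6% of all genes. The clearest feature of the members was a difference between individual mice: LT replicate 3 had the lowest value of the 6 libraries for 8 of the 10 genes. It was lowest for 18.6% of all genes of at least 1 CPM and for 44.3% of those in 5 related lists.

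Total counts on genes lay between 43086184 and 47778683 per library. CPM stands for the read count over the library size after TMM scaling. Slc40a1, the deleted gene, had 154, 180 and 126 CPM in the LT livers against 143, 143 and 176 CPM in those labelled Fpn-LKO, a log2 fold change of 0.01 (standard error 0.16). The deleted gene was thus not lower there, so every direction below rests on the labels. A count over the whole gene can include transcripts that lack a deleted part. In whole liver it also includes transcripts of cells other than hepatocytes, and the share of either was not tested. The paper reports that FPN was deleted in hepatocytes of Fpn-LKO mice. The transferrin receptor gene Tfrc, whose transcript is known to be destabilised when cells hold iron, did separate the labels, at 28 to 52.6 CPM in LT and 13.1 to 18.9 CPM in the livers labelled Fpn-LKO. Its log2 fold change of -1.24 (standard error 0.25) did not pass in edgeR's quasi-likelihood fit (adjusted p = 0.57) and did in exactTest (adjusted p = 0.0049) and DESeq2 (adjusted p = 0.00172), and the gene was chosen after its values were seen. Markers fitted the labelled tissue, with hepatocyte markers (Alb, Apoa1, Ttr, Cyp3a11 and Cps1) summing to 49337 to 62957 CPM in LT and 51030 to 61036 CPM in the livers labelled Fpn-LKO. No pair of libraries within a genotype agreed within sampling noise (chi-square per degree of freedom between 65.8 and 322).

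Antioxidant response elements share a short core, searched here as TGACNNNGC and TGAGNNNGC on both strands within the 250 bases before each start site of RefSeq (GRCm38.p6). Of the 10 members, 8 had promoter windows, 10 windows in all, and Gclc and Gsr had no entry. The core was present in 5 of the 10 windows, belonging to 5 of the 8 genes, beside 23% of all 32851 windows and 25.3% of the 15126 windows of genes tested. The stretches that hold it are shown because they mark where the letters bound by NRF2 in other systems occur in these genes. They run 5′ to 3′ along the strand of the gene, with the matching letters in capitals, and a match on the opposite strand appears as its reverse complement.
Nfe2l2, chr2:75704885-75704913, minus strand: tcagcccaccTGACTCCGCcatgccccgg
Srxn1, chr2:152105469-152105497, plus strand: aaattcacccTGAGTCAGCggccgggcgc
Srxn1, chr2:152105356-152105384, plus strand: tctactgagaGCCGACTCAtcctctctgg
Gclm, chr3:122245413-122245441, plus strand: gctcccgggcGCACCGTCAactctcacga
Txnrd1, chr10:82859104-82859132, plus strand: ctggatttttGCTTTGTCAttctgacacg
G6pdx, chrX:74428919-74428947, minus strand: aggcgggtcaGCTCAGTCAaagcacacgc

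The match in Srxn1 that lies closest to its start began 45 bases before it, and Srxn1 was the only member with 2 matches. In the other genes the first base of the match lay 240 (Nfe2l2), 134 (Gclm), 92 (Txnrd1) and 57 (G6pdx) bases before the start site of the window. For Gclm the window spans 122245307 to 122245606, and its start site lies inside the gene coordinates given below. Txnrd1 has more than 1 start site. Its match lies in the window at 82858956 to 82859255, and its other windows hold none. The windows of Keap1, Nqo1 and Cat did not hold these letters, which says nothing of elements farther away. The match is a description of the sequence and was not measured as binding.

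The levels of the 10 genes, compared as deposited TPM because TPM is scaled to transcript length, spanned 829-fold between the means of Cat and G6pdx. Cat, the peroxisomal enzyme that splits hydrogen peroxide, had a mean of 1032 ± 186 TPM (SD over the 6 libraries) and stood 15.8-fold above Gclc. Gclc and Gclm, the catalytic and modifier subunits of glutamate-cysteine ligase, followed with 65.5 ± 20.2 and 50 ± 3.03 TPM. Their ranges overlapped, and Gclc was the higher of the pair in 5 of 6 libraries. Txnrd1, the cytosolic thioredoxin reductase, had 35.4 ± 6.79 TPM, Gsr, which reduces oxidised glutathione, 24.9 ± 4.48 TPM, and Nfe2l2 20.5 ± 4.07 TPM. Each of these stood above the next in all 6 libraries although the ranges over mice overlapped. Srxn1, which repairs over-oxidised peroxiredoxins, and Keap1 had 11.7 ± 3.2 and 10.3 ± 1.41 TPM, and their order held in 4 of 6 libraries. Nqo1, the quinone reductase, with 3.86 ± 1.62 TPM, and G6pdx, which makes NADPH in the first step of the pentose phosphate pathway, with 1.25 ± 0.326 TPM, stood lowest, and neither range overlapped that of a neighbour.

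**Figure D1:**
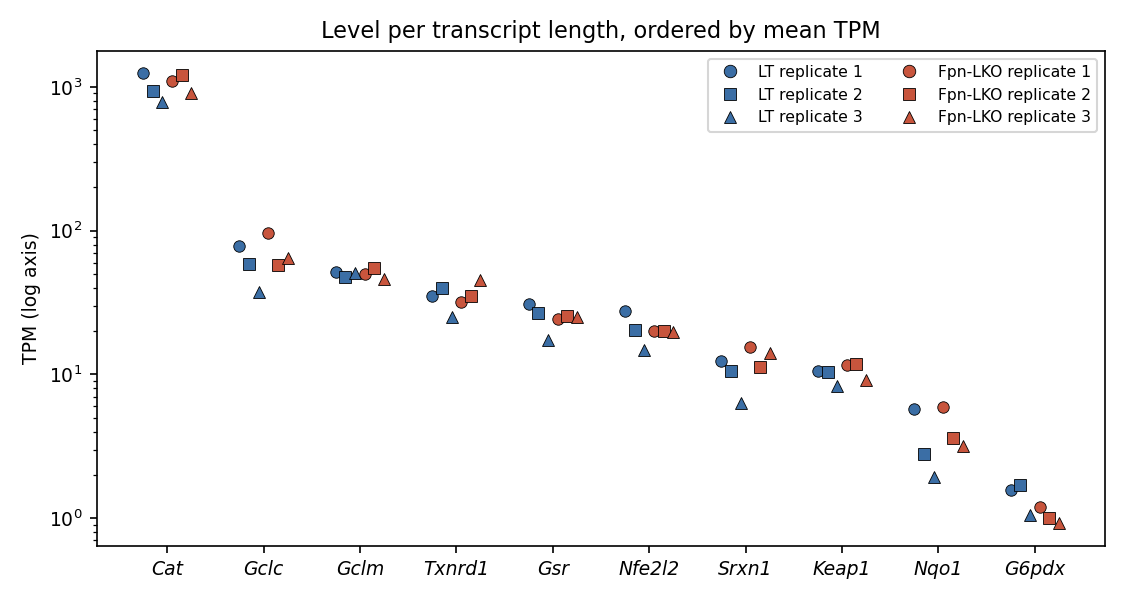
Deposited TPM (vertical log axis) of the 10 genes in each of the 6 liver libraries, ordered by mean, with LT in blue and the libraries labelled Fpn-LKO in red. Cat lies far above the rest at 785 to 1244 TPM, G6pdx lowest at 0.923 to 1.71 TPM, and the colours intermingle for every gene.

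Nfe2l2 and Keap1, the sensor pair, were close to equal between the genotypes. Nfe2l2 (gene ID 18024, chromosome 2, 75675513 to 75704663, GRCm38.p6) had 46.5, 37.8 and 30 CPM in the LT livers against 38.2, 32.1 and 36.1 CPM in those labelled Fpn-LKO. Both the highest and the lowest mouse were LT, and the values labelled Fpn-LKO lay between them. Nfe2l2 had a log2 fold change of -0.10 (standard error 0.17), with a 95% interval from -0.50 to 0.29. Keap1 (gene ID 50868, chromosome 9, 21229730 to 21239332) had 27, 30.5 and 25.3 CPM in the LT livers against 33.6, 29.1 and 25.6 CPM in those labelled Fpn-LKO. The groups overlapped over most of their range, with a log2 fold change of 0.09 (standard error 0.14, interval -0.23 to 0.41). For both genes the interval stayed within 1.5-fold in either direction. Keap1 shares a stretch of 209 bases with Gm16754.

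The enzymes of glutathione supply did not move together. Gclc (gene ID 14629, chromosome 9, 77754535 to 77794489) had 192, 160 and 111 CPM in the LT livers against 269, 134 and 168 CPM in those labelled Fpn-LKO. The highest value was that of Fpn-LKO replicate 1 and the lowest that of LT replicate 3, a 2.41-fold range, and the log2 fold change of 0.30 had a standard error of 0.29 (interval -0.38 to 0.98). Without Fpn-LKO replicate 1 it was -0.03. Gclm (gene ID 14630, chromosome 3, 122245487 to 122267215) was the steadiest member, at 75.3, 79 and 90.6 CPM in the LT livers against 82.9, 75.7 and 71.7 CPM in those labelled Fpn-LKO, a 1.26-fold range. Its highest value was in LT replicate 3, where Gclc was lowest. Between the genotypes it had a log2 fold change of -0.09 (standard error 0.12, interval -0.36 to 0.18). Stretches of up to 185 bases of Gclm are near-identical to parts of 148 other genes, which the counting could split.

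As a result the ratio of Gclc to Gclm, on deposited TPM, was 1.53, 1.22 and 0.741 in LT and 1.93, 1.06 and 1.41 in the libraries labelled Fpn-LKO. LT replicate 3 was the only library with more Gclm than Gclc transcript. The means of 1.16 ± 0.4 and 1.46 ± 0.438 (SD, n = 3 each) did not differ beyond the spread (exact two-sided permutation test, p = 0.5), and with 3 mice against 3 this test cannot give a p below 0.1.

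Gsr (gene ID 14782, chromosome 8, 33653238 to 33698162) had 59.2, 56.9 and 40.3 CPM in the LT livers against 52, 45.1 and 50.7 CPM in those labelled Fpn-LKO. LT held the highest values and the lowest one. This gave a log2 fold change of -0.08 (standard error 0.16, interval -0.46 to 0.29).

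G6pdx had the largest difference among the members, and it was downward. It (gene ID 14381, chromosome X, 74409483 to 74428880) had 2.65, 3.21 and 2.18 CPM in the LT livers against 2.26, 1.58 and 1.64 CPM in those labelled Fpn-LKO, from 74 to 139 reads. The overlap came from a single pair of values, since LT replicate 3 lay below Fpn-LKO replicate 1. The log2 fold change of -0.55 (standard error 0.28, interval -1.20 to 0.10) had an unadjusted p of 0.0854 and an adjusted p of 0.982 in the quasi-likelihood fit of edgeR. Without Fpn-LKO replicate 1 it was -0.73, with an unadjusted p of 0.0467 and an adjusted p of 0.982 in the same edgeR test. G6pdx shares 2332 aligned bases at 93.2% identity with G6pd2 and overlaps Ikbkg, so its few reads are uncertain.

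Among the thiol and quinone enzymes, Srxn1 had the largest upward difference. Srxn1 (gene ID 76650, chromosome 2, 152105524 to 152111376) had 24.8, 23.8 and 15.6 CPM in the LT livers against 35.4, 21 and 30 CPM in those labelled Fpn-LKO. The 2 highest values were labelled Fpn-LKO, but Fpn-LKO replicate 2 lay below 2 of the LT mice. The log2 fold change was 0.43 (standard error 0.24, interval -0.13 to 0.99), with an unadjusted p of 0.115 and an adjusted p of 0.982 in the quasi-likelihood fit of edgeR. Without LT replicate 3 it was 0.24, and without Fpn-LKO replicate 2 it was 0.61, with an unadjusted p of 0.0314 and an adjusted p of 0.999 in the same edgeR test.

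Txnrd1 (gene ID 50493, chromosome 10, 82833951 to 82897724) had 84.8, 109 and 74.6 CPM in the LT livers against 87.9, 78.6 and 115 CPM in those labelled Fpn-LKO. Each group held 1 value of at least 109 CPM, and the other 4 values lay between 74.6 and 87.9 CPM. This left a log2 fold change of 0.07 (standard error 0.19, interval -0.37 to 0.52). Txnrd1 overlaps Eid3 and Gm38560, and Gsr overlaps Gm17803 and Gm24727.

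Nqo1 (gene ID 18104, chromosome 8, 107388225 to 107403205) varied more between mice than any other member. It had 6.37, 3.49 and 2.63 CPM in the LT livers against 7.42, 3.73 and 3.75 CPM in those labelled Fpn-LKO. In each group replicate 1 stood far above the other two, so that the range within LT was 2.42-fold and that within Fpn-LKO 1.99-fold. The log2 fold change of 0.25 had a standard error of 0.41 and an interval from -0.70 to 1.20, the widest of the 10, and it was -0.16 without Fpn-LKO replicate 1 and 0.01 without LT replicate 3. For Nqo1 the interval thus covered changes from 0.616-fold to 2.3-fold, which these 6 mice could not tell apart.

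Cat (gene ID 12359, chromosome 2, 103453904 to 103485153) had 2259, 1895 and 1742 CPM in the LT livers against 2282, 2077 and 1754 CPM in those labelled Fpn-LKO. The groups covered nearly the same range. Accordingly the log2 fold change was 0.05 (standard error 0.19), with an interval from -0.38 to 0.49, or 0.767-fold to 1.4-fold.

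**Figure D2:**
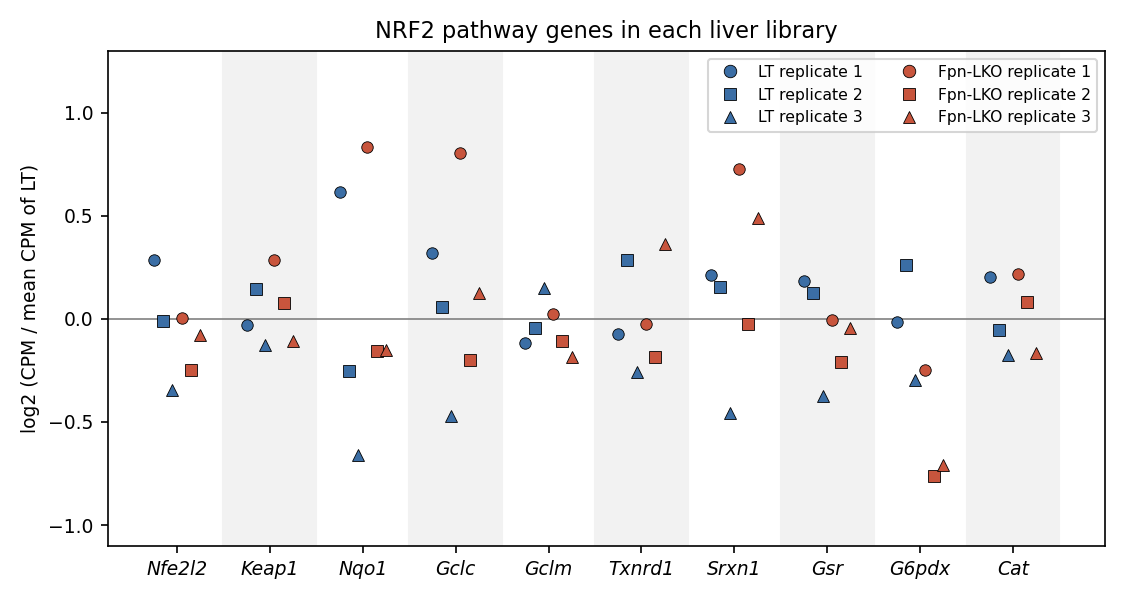
The log2 ratio of each library's CPM to the mean CPM of LT (vertical axis) for the 10 genes, 1 point per mouse, with LT in blue, the libraries labelled Fpn-LKO in red, and circles, squares and triangles for replicates 1, 2 and 3. The blue triangles of LT replicate 3 lie lowest for 8 genes and highest for Gclm, and no gene has its red and blue points apart.

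Over the 10 genes the standard errors ran from 0.12 to 0.41 on the log2 scale. For 6 members (Nfe2l2, Keap1, Gclm, Txnrd1, Gsr and Cat) the 95% interval lay inside a 1.5-fold change in either direction, and for 8, all but Nqo1 and G6pdx, inside a 2-fold change. Log2 fold changes were above 0 for 6 members and below 0 for 4, with a median of 0.06, beside 49.4% above 0 and a median of -0.00 over all genes tested. Without LT replicate 3 the count above 0 was 4 of 10, and without Fpn-LKO replicate 1 it was 2 of 10. In edgeR's quasi-likelihood fit the Benjamini-Hochberg adjusted p-values of the members lay between 0.982 and 0.995, and the exact two-sided permutation p for single genes lay between 0.2 and 0.8.

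**Figure D3:**
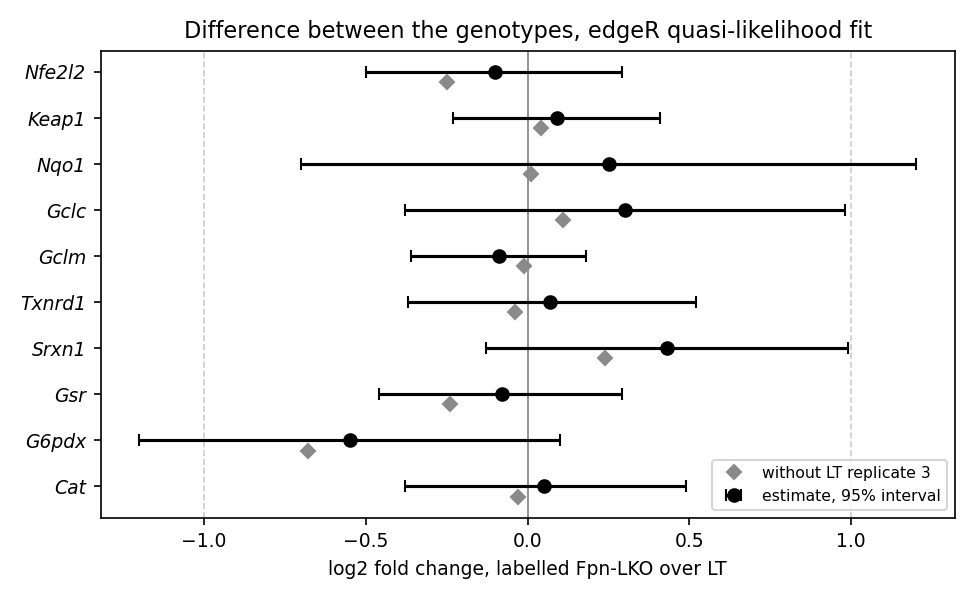
Log2 fold change, libraries labelled Fpn-LKO over LT (horizontal axis), of the 10 genes in edgeR's quasi-likelihood fit, with bars for the 95% interval, grey diamonds for the fit without LT replicate 3, and dashed lines at a 2-fold change. Every bar crosses 0, and those of Nqo1 (-0.70 to 1.20) and G6pdx (-1.20 to 0.10) are the ones that pass a dashed line.

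The members varied between mice about as much as other genes did. The highest of the 6 libraries exceeded the lowest by 1.26-fold (Gclm) to 2.82-fold (Nqo1), with a median of 1.55-fold over the 10 genes and 1.55-fold over the 12577 genes with a mean of at least 1 CPM. What stood out was which mice were low and high, a feature noticed after the values were seen and given here without a test. LT replicate 3 was the lowest library for 8 of 10 members (all but Gclm and G6pdx) and the lowest of the LT mice for 9, whereas it was lowest for 18.6% of the 12577 genes. In the 5 related lists described below it was lowest for 44.3% of the 79 genes of at least 1 CPM. By list this was 65.2% of other targets, 55.6% of glutathione genes, 45.5% of NADPH genes, 38.5% of NRF2 partners and 21.7% of antioxidant enzymes. Fpn-LKO replicate 1 was the highest library for 5 members (Keap1, Nqo1, Gclc, Srxn1 and Cat), beside 18.6% of the 12577 genes. The median log2 deviation of the members from the LT mean was 0.21, 0.11 and -0.30 in LT and 0.13, -0.14 and -0.05 in the libraries labelled Fpn-LKO, while that of all genes of at least 1 CPM stayed between -0.01 and 0.01. The count for LT replicate 3 was 8 with RLE scaling, with no scaling and with TPM, and 7 with FPKM, and that for Fpn-LKO replicate 1 was 3 with TPM.

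**Figure D4:**
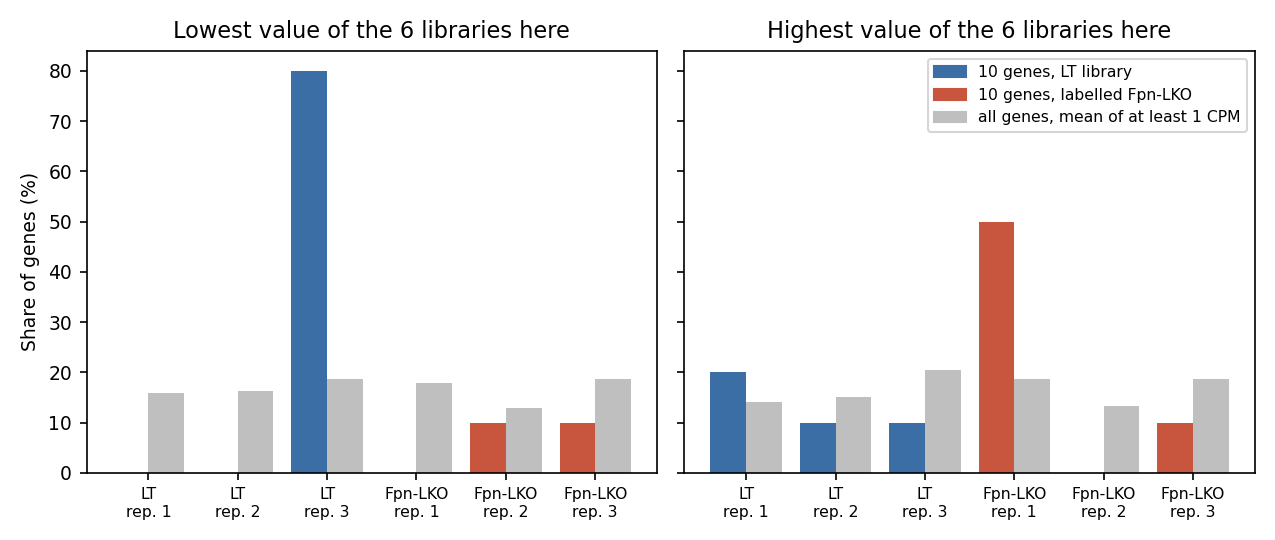
Share of genes (percent, vertical axis) that have their lowest (left) or highest (right) CPM in each of the 6 libraries, with coloured bars for the 10 genes (blue for LT, red for libraries labelled Fpn-LKO) and grey bars for the 12577 genes with a mean of at least 1 CPM. LT replicate 3 holds the lowest value of 80% of the 10 genes beside 18.6% of all genes, and Fpn-LKO replicate 1 the highest of 50% beside 18.6%.

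LT replicate 3 also stood apart in Spp1, which encodes osteopontin and is listed here as a cholangiocyte marker. Spp1 had 83.1 CPM there, beside 11.1 to 27.7 CPM in the other 5 libraries, and the summed cholangiocyte markers reached 84.4 CPM beside 12.8 to 29.9 CPM. Of the other 4 cholangiocyte markers, Epcam and Sox9 reached at most 1.26 CPM in any library, and Krt19 and Krt7 had too few reads to be tested. Summed markers of Kupffer cells (162 to 216 CPM in LT, 129 to 303 CPM labelled Fpn-LKO), endothelial cells (244 to 299, 233 to 249 CPM), stellate cells (354 to 424, 382 to 405 CPM), neutrophils (1.21 to 1.53, 1.2 to 2.05 CPM), lymphocytes (0.266 to 1.32, 0.495 to 0.514 CPM) and erythroid cells (351 to 941, 473 to 1243 CPM) overlapped between the genotypes. Pancreatic acinar markers did not overlap (0.577 to 1.5, 0 to 0.343 CPM), but 4 of the 5 (Prss2, Cpa1, Pnlip and Ctrb1) had no read in any library. The sum was thus that of Cela2a alone, at 0 to 62 reads per library. Of the 5 stellate markers, Pdgfrb and Col1a1 did not overlap and were higher in the livers labelled Fpn-LKO, beside 5.25% of all genes. Pdgfrb had 5.08 to 5.66 CPM in LT and 6.23 to 9.37 CPM labelled Fpn-LKO, and Col1a1 0.277 to 0.846 and 0.857 to 1.89 CPM. Lrat, Reln and Dcn overlapped. Pdgfrb, Lyve1 (endothelial) and Alas2 (erythroid) were higher and Cela2a (acinar) lower at an unadjusted p under 0.05 in edgeR's quasi-likelihood test. No cell type marker passed an adjusted p of 0.05 in that test, and 4.8% of all genes had an unadjusted p under 0.05. The part of these markers in the low values of LT replicate 3 was not tested.

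Nqo1 served as the reference profile for finding genes that followed the same pattern over the 6 mice, by the root mean square distance between log2 CPM profiles centred on their own means. Of the other genes with a mean of at least 1 CPM, those among the closest were Slc4a4, a sodium bicarbonate cotransporter (distance 0.12), Sco2, a cytochrome c oxidase assembly factor (0.14), Mbnl3, a splicing regulator (0.14), and Gm11843 (0.16), beside a median of 0.56 over 12567 genes. Slc4a4 had 206, 118 and 90.5 CPM in the LT livers against 203, 112 and 129 CPM in those labelled Fpn-LKO, with replicate 1 of each genotype high as for Nqo1. Among the members Gclc came closest to Nqo1 (distance 0.21, rank 18) and Srxn1 next (0.33, rank 275). Gclm, Txnrd1 and G6pdx lay at 0.55, 0.56 and 0.56, about the median of all genes.

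The rest of the pathway was examined in 5 lists that hold none of the members. No gene of the 82 tested passed an adjusted p of 0.05 in edgeR's quasi-likelihood test, 4 were higher and 1 lower at an unadjusted p under 0.05 (beside 2.62% and 2.19% of all genes), and 6 were higher and 2 lower without overlap (beside 5.25% and 5.34%).

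**Figure D5:**
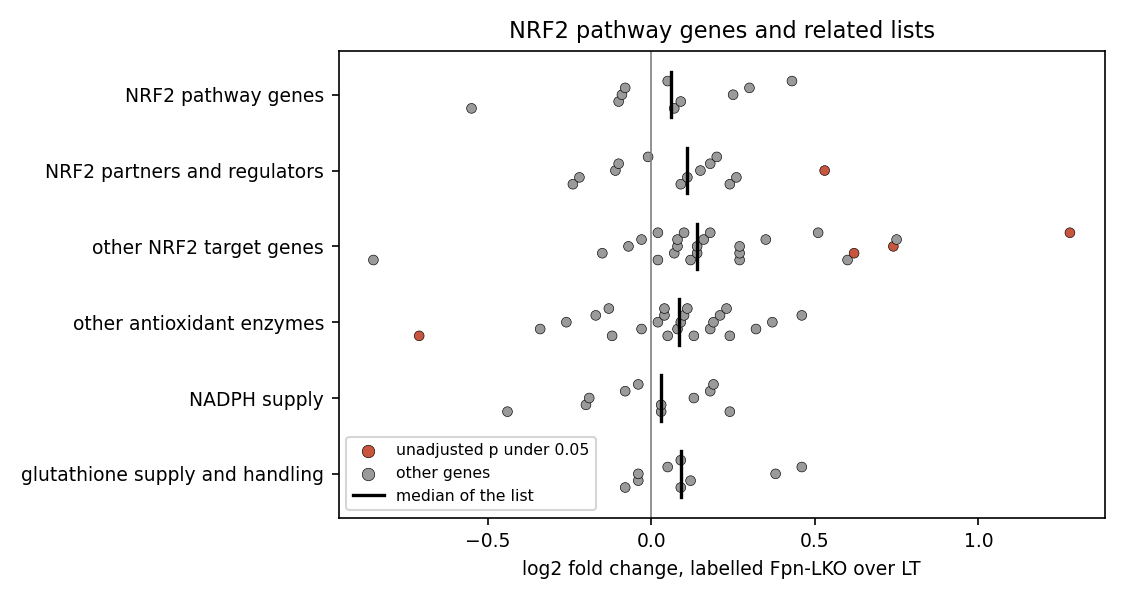
Log2 fold change, libraries labelled Fpn-LKO over LT (horizontal axis), of the genes tested in the 10 NRF2 pathway genes and 5 related lists (rows), 1 point per gene, with red points at an unadjusted p under 0.05 and black bars at list medians. The medians lie between 0.03 and 0.14, and no point passed an adjusted p of 0.05.

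Other NRF2 target genes showed the most upward values. Of 25 genes, all tested, 21 had a log2 fold change above 0, with a median of 0.14, but without LT replicate 3 the count was 13 of 25 (median 0.04), near the 50.7% of all genes above 0 in that fit. LT replicate 3 was the lowest library for 15 of the 23 genes of at least 1 CPM (65.2%). Ftl1, the ferritin light chain, had 2029, 2055 and 1712 CPM in the LT livers against 2928, 2707 and 3266 CPM in those labelled Fpn-LKO. Its groups did not overlap, with a log2 fold change of 0.62 (standard error 0.17, unadjusted p = 0.00847), which did not pass in edgeR's quasi-likelihood test (adjusted p = 0.926) and did in DESeq2 (adjusted p = 0.0096). Ftl1 shares near-identical stretches with 25 other genes, among them Ftl1-ps1, so reads can be split between them. Ugdh, which makes UDP-glucuronic acid for glucuronidation, had 77.9, 58.9 and 46.8 CPM in the LT livers against 113, 91.9 and 101 CPM in those labelled Fpn-LKO. Its groups did not overlap either, with a log2 fold change of 0.74 (standard error 0.19, unadjusted p = 0.00552, adjusted p = 0.823 by the edgeR test and 0.0994 by DESeq2).

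Gsta1, a glutathione S-transferase, was the other gene of that list at an unadjusted p under 0.05 (log2 fold change 1.28, standard error 0.54), at 0.208 to 1.19 CPM and with a copy at 99.5% identity, Gm3776. Abcc4, an efflux transporter, had a log2 fold change of 0.51 (standard error 0.29). Gstp1, a glutathione S-transferase and the target gene with the highest mean after Ftl1, had 214, 1117 and 1248 CPM in the LT livers against 321, 561 and 547 CPM in those labelled Fpn-LKO. The log2 fold change of -0.85 had a standard error of 0.58, since replicate 1 of either genotype was low, and its reads can be shared with Gstp2 (98.2% identity).

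Of the 15 partners and regulators of NRF2, 13 were tested and Nfe2l3 and Nfe2 had too few reads. Their log2 fold changes were above 0 for 8 and below 0 for 5, with a median of 0.11. Bach2, a repressor related to Bach1, had 15.4, 20.7 and 13.5 CPM in the LT livers against 26.6, 18.3 and 26.7 CPM in those labelled Fpn-LKO. Fpn-LKO replicate 2 fell within the LT values, and the log2 fold change was 0.53 (standard error 0.21, unadjusted p = 0.0377, adjusted p = 0.982 in the quasi-likelihood fit of edgeR). Bach1, which competes with NRF2 for its binding sites, had a log2 fold change of 0.11 (standard error 0.23), and Sqstm1, the autophagy receptor p62 that binds KEAP1, 0.20 (0.23). Nfe2l1, an NRF2 relative, had 0.26 (0.17), and Dpp3, which binds KEAP1, -0.22 (0.17). Bach2 overlaps Bach2os and shares near-identical stretches with 942 genes, and Sqstm1 shares 583 bases with Mrnip, so reads there can be split.

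Among 24 other antioxidant enzymes, all tested, 17 had a log2 fold change above 0 with a median of 0.08, and the count was 17 without LT replicate 3 as well. Txnrd3, a thioredoxin reductase known from testis, had 3.23, 4.92 and 4.57 CPM in the LT livers against 2.05, 3.47 and 2.24 CPM in those labelled Fpn-LKO. Fpn-LKO replicate 2 lay above the lowest LT value, and the log2 fold change was -0.71 (standard error 0.29, unadjusted p = 0.0409, adjusted p = 0.982 in the quasi-likelihood fit of edgeR). Txnrd2, the mitochondrial paralogue, had -0.34 (0.16).

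The groups of 3 of the 24 antioxidant genes did not overlap, beside 10.6% of all genes. All 3 were higher in the livers labelled Fpn-LKO, beside 5.25% of all genes, and none passed the edgeR test at either level. Gpx1, the main glutathione peroxidase of the liver, had 1824, 1609 and 1928 CPM in the LT livers against 2182, 2132 and 2359 CPM in those labelled Fpn-LKO, with a log2 fold change of 0.32 (standard error 0.16). Txn1, thioredoxin, had 133, 110 and 129 against 148, 138 and 154 CPM (0.24, standard error 0.12), with a near-identical copy in Txn-ps1. Prdx5, a peroxiredoxin chosen after its values were seen, had 132, 133 and 149 against 158, 157 and 158 CPM (0.19, standard error 0.10). Mgst1, the microsomal glutathione S-transferase with the highest mean of the list, was at 0.04 (0.17).

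The 11 enzymes listed under NADPH supply, not all of which make NADPH, split evenly, with 6 above 0, 5 below 0 and a median of 0.03. The enzymes that act after G6pdx in the pentose phosphate pathway did not all share its direction, with log2 fold changes of 0.24 (standard error 0.21) for Pgd, 0.13 (0.13) for Taldo1, 0.03 (0.13) for Tkt and 0.03 (0.10) for Rpe. In that pathway Pgls and Rpia lay lower in the livers labelled Fpn-LKO without overlap, but did not pass at an unadjusted p under 0.05. They were 2 of the 11 genes of the list, beside 5.34% of all genes that were lower without overlap. Pgls had 33.8, 35.4 and 38.4 CPM in the LT livers against 28.8, 32.5 and 32.2 CPM in those labelled Fpn-LKO, with a log2 fold change of -0.20 (standard error 0.11), and Rpia 1.25, 1.34 and 1.28 against 0.881, 1.14 and 0.84 CPM (-0.44, standard error 0.30). Idh1, the cytosolic isocitrate dehydrogenase, was at -0.08 (0.16) and H6pd, the endoplasmic reticulum counterpart of G6pdx, at 0.19 (0.14).

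Of the 11 genes of glutathione supply and handling, 9 were tested, and Slc7a11, the cystine importer, and Ggt1 had too few reads. Log2 fold changes were above 0 for 6 of the 9 (median 0.09) and for 3 of the 9 without LT replicate 3. Oplah, which returns 5-oxoproline to glutamate and was named after its values were seen, was higher without overlap at 170, 172 and 162 CPM in the LT livers against 174, 189 and 175 CPM in those labelled Fpn-LKO, with a log2 fold change of 0.09 (standard error 0.10). Gstk1 had 0.38 (0.17), Ggct 0.46 (0.23), Glo1 0.05 (0.17) and Hagh -0.08 (0.12), each a log2 fold change with its standard error. Glo1 shares near-identical stretches with 1165 other genes, the longest with Gm13443, and Hagh overlaps Fahd1 and Meiob.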

How the data were processed

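Liver RNA-seq of 6 mice was analysed. Per the labels, libraries were made with a stranded mRNA kit, whereas the methods name a total RNA kit with removal of ribosomal RNA. The submitters' processing notes name HISAT2 2.1.0, Bowtie2 2.3.4.1, StringTie 2.1.3b and mm10, and the annotation release is not given in the sources used here. The authors deposited read counts per gene, without normalization, and FPKM and TPM, both scaled to transcript length and library size. The strand setting of the counting is not stated, and Rn7s1 took 6.68 to 18.6% of the deposited TPM, which shifts the TPM of the other genes.

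Counts were tested with edgeR 4.0.16 (R 4.3.3; TMM, quasi-likelihood), without genes at 0 reads in more than 1 library, and p-values were adjusted by Benjamini-Hochberg over 17274 genes. The methods name edgeR's exactTest, run here as an alternative. The fits were tested on simulated data. There edgeR's quasi-likelihood test called 26 of 98 genes with a log2 change of 1 and 64 of 97 with a log2 change of 2. It also called 9 unchanged genes. The exactTest called 42 and 71 of the changed genes with 42 unchanged ones, and DESeq2 46 and 71 with 49 unchanged ones. Calls by these 2 tests alone are therefore less certain. A member changed 2-fold could thus fail to pass. With counts of this depth the spread between mice (common biological coefficient of variation 0.275) sets the precision.

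Alternatives were RLE scaling, exactTest, DESeq2 1.42.0 (Wald test, no independent filtering), all genes with at least 1 read, filterByExpr, robust estimation, the replicate number as a block, limma 3.58.1 on log2(TPM + 1) and log2(TPM + 0.1) for a mean TPM of at least 1, and each mouse left out. FPKM served only to rank libraries. Genes and lists were chosen with earlier results of these data known. Named genes were the 10 members, Slc40a1, in each other list every gene at an unadjusted p under 0.05 and at least 1 CPM with the 2 of smallest p and the 2 of highest mean, and the 5 closest to Nqo1, of which 1 is not reported here. Others were named after their values were seen. BLAST 2.17.0 searched for near-identical copies (90% identity over 100 bases), and coordinates and promoters are those of RefSeq GRCm38.p6.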

Additional observations from a re-analysis of the deposited data

How the results depend on the processing

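With the alternatives run, no member passed an adjusted p of 0.05, and the median log2 fold change of the members lay between -0.08 and 0.15. All genes past the threshold numbered 63 with exactTest, 72 with DESeq2 and 7 with limma on log2(TPM + 0.1), in place of 4, and 0 to 6 when 1 mouse was left out. Of other NRF2 target genes 1 passed with DESeq2, Ftl1 (log2 fold change 0.62). In the simulated data exactTest and DESeq2 called more unchanged genes than the quasi-likelihood test did. Members at an unadjusted p under 0.05 numbered 0 to 1 when 1 mouse was left out. Log2 fold changes above 0, in place of 6 of the 10 members, numbered 2 without Fpn-LKO replicate 1, 4 without LT replicate 3 and 8 with limma on log2(TPM + 1). For the other target genes the count was 13 of 25 without LT replicate 3, 21 of 25 without Fpn-LKO replicate 1 and 21 of 22 with limma on log2(TPM + 1), and for the glutathione genes it was 3, 6 and 9 of 9 in the same order. Of the members, 3 were highest in Fpn-LKO replicate 1 with TPM, in place of 5. The alternatives for these counts of signs and ranks were chosen after the data were seen. With limma on TPM, under both pseudocounts, log2 fold changes turned to 0.01 for Gclm, 0.03 for Gsr, 0.01 for Hagh and 0.02 for Idh1, in a fit in which 69.2% of all genes lay above 0 (limma on log2(TPM + 1)). Leaving out 1 mouse turned the sign of Nfe2l2 (-0.25 to 0.06), Keap1 (-0.01 to 0.19), Nqo1 (-0.16 to 0.70), Gclc (-0.03 to 0.50), Txnrd1 (-0.10 to 0.24), Gsr (-0.24 to 0.02), Cat (-0.04 to 0.16), Bach1 (-0.17 to 0.31), Glo1 (-0.13 to 0.14), Idh1 (-0.19 to 0.04) and Mgst1 (-0.01 to 0.09). The cause of these shifts was not tested.

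The replicate number as a block called 0 of all genes in place of 4 and changed no call of a member. The numbers are those of the labels and belong to different mice. Deviations of same-numbered mice from their group means correlated at 0.129, -0.009 and 0.045 over genes, and 3 of the 6 libraries correlated best with their own number, so the numbers were not taken to pair the mice. Counting error is small at this depth except for G6pdx (74 reads in the lowest library) and Nqo1 (109 reads in its lowest library). For Nqo1 the spread between mice also limits detection.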
